A study of Mus musculus with 2 samples.

Results

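The genes described here are those of the interferon response and of antigen processing, 39 named genes in all. Interferons are secreted proteins that bind receptors on the cell surface. JAK kinases then activate STAT proteins, and STAT and IRF transcription factors switch on interferon-stimulated genes, whose products block the spread of viruses. The same signal raises the immunoproteasome and the TAP transporter, which cut proteins into peptides and load them onto major histocompatibility complex (MHC) class I molecules. Many of these genes are also expressed at a low level without infection, in kidney as in other tissues, in epithelial, endothelial and immune cells.

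The comparison was between a kidney sample of the B6C3Fe a/a-bpck mutant mouse, a model of polycystic kidney disease, and a wild-type kidney sample, both from postnatal day 3. It asked which transcripts differ early in the disease. Each group was 1 sample on 1 Affymetrix Mouse 430 2.0 array, a chip that reads each transcript with sets of short probes called probe sets. The labels name neither the mutated gene, nor the strain of the wild type, nor the sex or number of animals. With 2 arrays there is no replicate error and no test, so each difference below describes these samples alone, and a genotype effect cannot be told apart from any other difference between them.

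Members were found as probe sets whose annotation gives 1 gene symbol that is on the list. This gave 55 of 45037 probe sets and 36 of 39 genes, against 20667 genes with a probe set of their own in the series. Isg15 and Usp18, the ubiquitin-like modifier of the response and the protease that removes it, each share their probe set with another gene and were left out. Ifi27 has no probe set under that symbol. Its gene identifier stands under the older symbol Ifi27l1, where one probe set read 112.9 in mutant and 118.9 in wild type, and the other 88.1 in mutant and 102.0 in wild type. Ifi27 was not counted among the 36.

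Values are dChip intensities on a linear scale as deposited. The log2 difference is mutant minus wild type after raising lower readings to 4.2, the 20th percentile of the 2 arrays pooled. A gene with several probe sets is represented by the one of highest mean log2 intensity. Members are called bright if the higher of their 2 array values reached intensity 84, and dim if it did not. There were 12 bright and 24 dim members. Nearest to that boundary on the dim side was Ifih1, whose higher value was 66.7, and on the bright side Irf1, with 98.2. Intensities of different genes are not compared, since probe sets differ in their response.

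Response elements in the promoter help place a gene under interferon control, and 5 promoters are shown because their genes span the observed differences. Gbp3, Ifit1, Irf7 and Tap1 were among the members farthest lower in mutant, and B2m was higher. Each is the window from 250 bases before to 50 bases after the start, the most 5′ one listed, 5′ to 3′ on the strand of the gene. Sequences are from RefSeq, build GRCm38.p6. Capitals mark matches to the core of the interferon-stimulated response element (GAAA, any 2 bases, GAAA), bound by IRF factors, on either strand.
Gbp3 (chr3:142559794-142560093, plus strand): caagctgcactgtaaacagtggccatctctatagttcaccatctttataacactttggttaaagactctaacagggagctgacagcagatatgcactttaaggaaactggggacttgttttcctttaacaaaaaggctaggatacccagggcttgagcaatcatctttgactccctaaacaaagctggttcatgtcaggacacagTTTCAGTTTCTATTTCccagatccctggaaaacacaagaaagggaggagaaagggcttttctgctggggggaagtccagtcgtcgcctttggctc
Ifit1 (chr19:34640639-34640938, plus strand): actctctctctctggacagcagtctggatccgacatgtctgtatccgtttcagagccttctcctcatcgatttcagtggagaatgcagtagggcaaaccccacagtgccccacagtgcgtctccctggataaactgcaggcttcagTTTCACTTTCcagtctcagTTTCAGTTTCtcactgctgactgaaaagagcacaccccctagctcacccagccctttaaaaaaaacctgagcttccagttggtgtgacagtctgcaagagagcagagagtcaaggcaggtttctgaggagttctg
Irf7 (chr7:141266375-141266674, minus strand): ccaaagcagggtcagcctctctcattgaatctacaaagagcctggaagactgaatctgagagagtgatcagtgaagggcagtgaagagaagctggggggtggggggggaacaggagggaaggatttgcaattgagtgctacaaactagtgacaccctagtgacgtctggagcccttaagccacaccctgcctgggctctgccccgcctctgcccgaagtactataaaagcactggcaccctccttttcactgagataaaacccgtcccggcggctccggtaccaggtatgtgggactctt
Tap1 (chr17:34187306-34187605, plus strand): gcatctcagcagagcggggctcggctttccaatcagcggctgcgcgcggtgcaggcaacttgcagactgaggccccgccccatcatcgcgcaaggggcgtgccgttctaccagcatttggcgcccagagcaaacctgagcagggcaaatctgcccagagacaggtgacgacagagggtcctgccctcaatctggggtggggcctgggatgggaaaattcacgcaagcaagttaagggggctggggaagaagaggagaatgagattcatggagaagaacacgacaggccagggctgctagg
B2m (chr2:122147437-122147736, plus strand): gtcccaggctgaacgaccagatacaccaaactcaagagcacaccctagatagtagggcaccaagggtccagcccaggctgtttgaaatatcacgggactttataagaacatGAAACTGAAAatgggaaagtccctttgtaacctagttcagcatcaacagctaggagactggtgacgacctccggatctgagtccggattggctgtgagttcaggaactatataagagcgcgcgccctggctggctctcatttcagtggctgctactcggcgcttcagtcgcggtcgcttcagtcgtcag

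In the Gbp3 window 2 matches overlap, starting 45 and 39 bases before the start of the gene. The Ifit1 window holds 2 matches and the B2m window 1, while the Irf7 and Tap1 windows hold none. Of the 39 listed genes, 31 were in the promoter table, and 15 of these (48.4%) had this core in at least 1 window, against 3.99% of the 27025 genes in the table. The core of the gamma-activated site (TTCNNNGAA, a palindrome bound by STAT dimers) was in the windows of 9 members (29.0%), against 9.55% of all genes. None of the 5 windows shown holds it. A match is a run of letters and does not show that a factor binds there. A window without a match does not show that its gene lacks a response element. Only these 300 bases and exact cores were searched.

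Most members were lower in the mutant sample by small amounts. In bulk tissue, fewer cells of a type and less RNA per cell cannot be told apart. Of 36 members, 30 were lower and 6 higher. Their median log2 difference was -0.20, while 47.3% of all genes were lower, 42.9% were higher and the median was 0.00. The lean was plainest among dim members, 22 of which were lower and 2 higher (median -0.28). Among all 12903 dim genes 45.4% were lower and 38.9% higher, the rest being equal in both arrays after values were raised to 4.2, and the median was 0.00. The 12 bright members were divided, with 8 lower and 4 higher (median -0.10). All 7764 bright genes had a median of 0.00, with 50.4% lower and 49.6% higher.

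**Figure D1:**
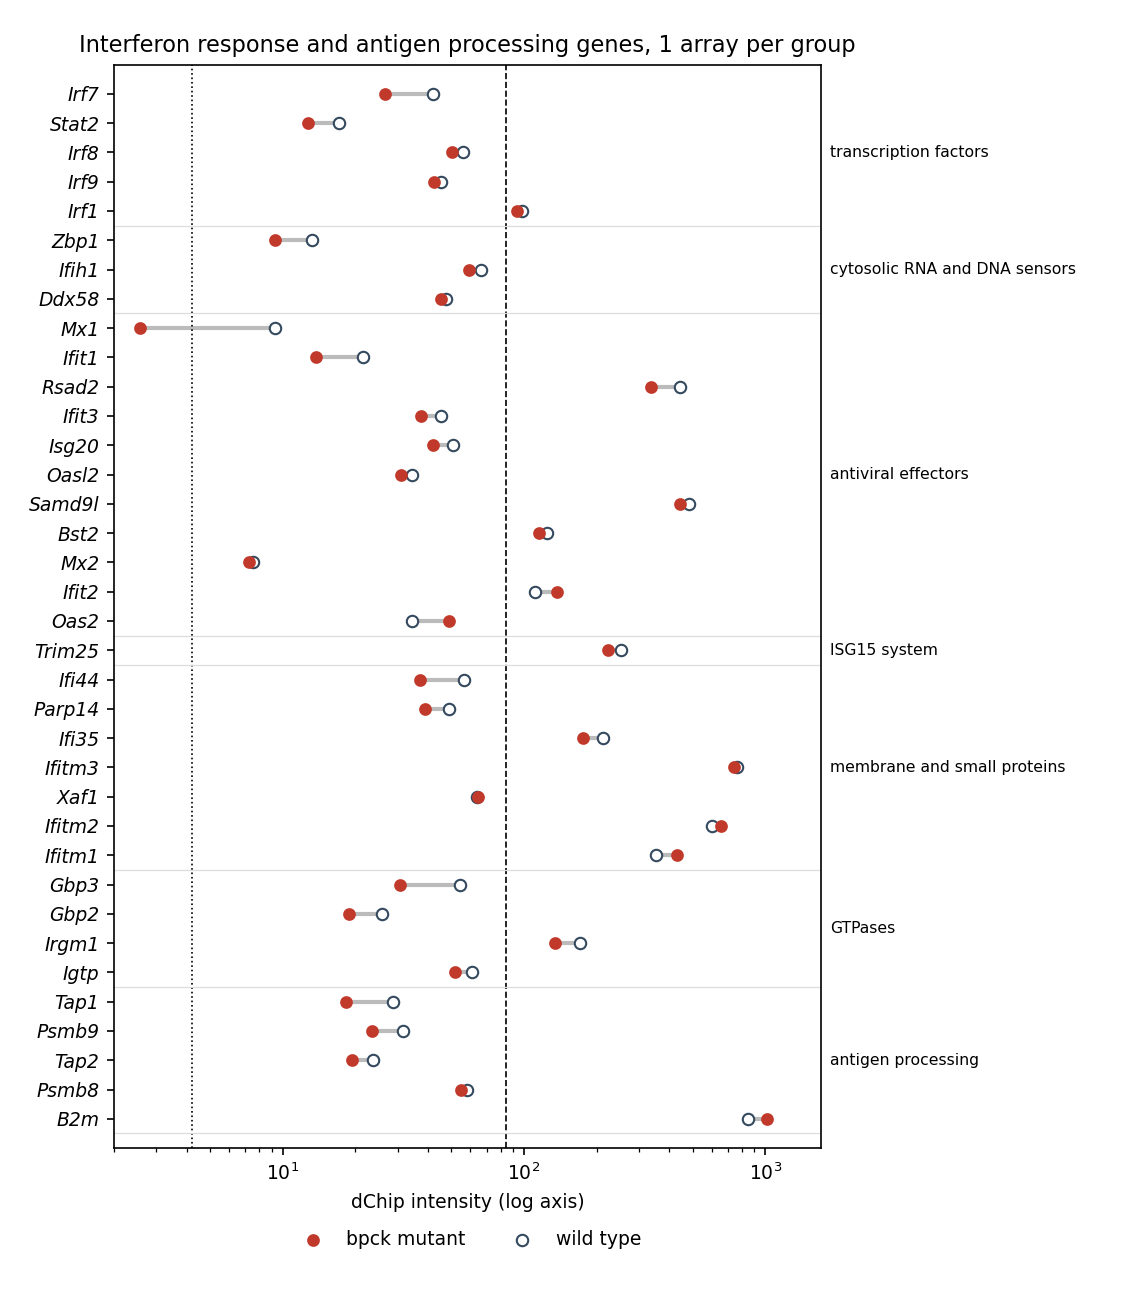
Intensity (log axis) of each of the 36 members in the bpck mutant array (filled red) and the wild-type array (open), grouped by role and ordered within each role by difference. The dashed line marks intensity 84 and the dotted line 4.2. Most red points lie left of the open ones, with Oas2, Ifit2, Ifitm1, Ifitm2, B2m and (within 1.01-fold) Xaf1 on the other side.

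A difference of at least 1.5-fold was used as a threshold of size. Of the 36 members, 6 were at least 1.5-fold lower and 0 at least 1.5-fold higher, against 5.76% of all genes lower and 4.71% higher. All 6 were dim. Among the 24 dim members this is 6 lower, against 8.86% of dim genes, and 0 higher, against 6.91%. Among bright members none differed by 1.5-fold, a threshold that 0.605% of bright genes passed as lower and 1.06% as higher. The 6 were Gbp3, Irf7, Tap1, Ifit1, Ifi44 and Mx1.

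Dim genes scattered more widely than bright ones, with an SD of the log2 difference of 0.43 over all dim genes and 0.24 over all bright genes. The higher value of 3 members (Zbp1, Mx1 and Mx2) was under 16.53, the median of all values. Without them the dim group held 21 members, of which 19 were lower and 2 higher (median -0.28). For all 5384 dim genes at or over 16.53, 54.2% were lower and 45.7% higher, and the median was -0.02. In this range 5 members were at least 1.5-fold lower, against 5.4% of genes, and 0 higher, against 3.38%.

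**Figure D2:**
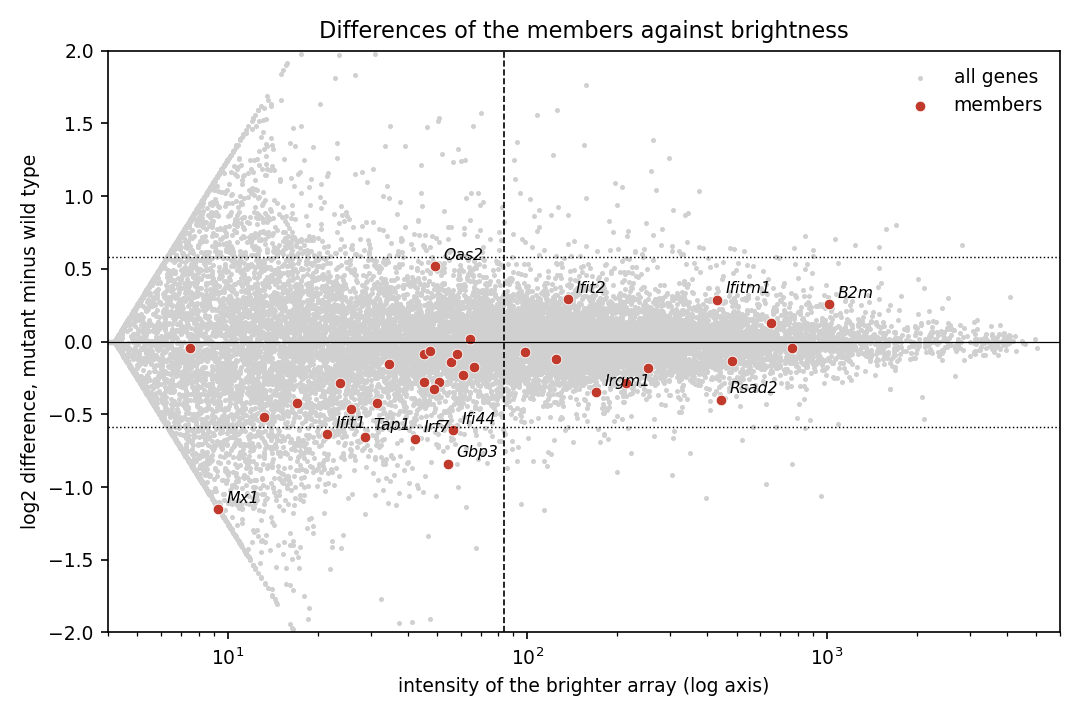
Log2 difference (mutant minus wild type) against the intensity of the brighter array (log axis) for all genes (grey) and the 36 members (red), with the dashed line at intensity 84 and dotted lines at 1.5-fold. Differences beyond 2 on the log2 scale are outside the frame. Gbp3, Irf7, Tap1, Ifit1, Ifi44 and Mx1 lie below the lower dotted line, and no member lies above the upper one.

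Among the transcription factors, all 5 members were lower in mutant. Irf7, which amplifies the response by driving interferon genes, read 26.6 in mutant and 42.2 in wild type, a 1.59-fold difference (log2 difference -0.67). Stat2, a subunit of the complex that carries the type I signal to the nucleus, read 12.8 in mutant and 17.1 in wild type. Its second probe set was also lower, but near the bottom of the scale, with 3.87 in mutant and 6.07 in wild type. Its log2 difference of -0.53 is set by the floor, since the mutant value is under 4.2. Both readings of Stat2 went one way. Irf9, the DNA-binding subunit of that complex, was within 1.06-fold (42.5 in mutant and 45.1 in wild type). Irf1, an early activator downstream of interferon gamma, was within 1.05-fold (93.3 in mutant and 98.2 in wild type). Irf8, a factor of myeloid cells, read 50.5 in mutant and 55.7 in wild type, but its probe sets went opposite ways, at -0.14 and 0.02. The factors thus ranged from Irf7, past 1.5-fold, to several that were nearly level.

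The 3 sensors of foreign nucleic acid were lower as well, each by under 1.5-fold. Ifih1 (MDA5), a sensor of long double-stranded RNA, read 59.0 in mutant and 66.7 in wild type. Ddx58 (RIG-I), a sensor of short viral RNA, was nearly level at 45.3 in mutant and 47.4 in wild type, and its 3 probe sets lay between -0.06 and 0.10 on the log2 scale. Zbp1, a sensor of Z-form nucleic acid that can trigger cell death, was dim, with 9.26 in mutant and 13.3 in wild type.

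Of 11 antiviral effectors 9 were lower (median log2 difference -0.15). The Ifit genes encode proteins that bind viral RNA, and Ifit2, Ifit3 and Ifit1 lie together on chromosome 19. They did not move as one. Ifit1 read 13.8 in mutant and 21.4 in wild type (1.55-fold lower) and Ifit3 read 37.4 in mutant and 45.3 in wild type (1.21-fold lower). Ifit2, the bright one of the 3, was 1.23-fold higher, with 136.5 in mutant and 111.4 in wild type. The oligoadenylate synthetase family activates RNA decay on sensing double-stranded RNA. Of this family and its relatives, the members Oas2 and Oasl2 went opposite ways. Oas2 was 1.43-fold higher, with 49.1 in mutant and 34.3 in wild type, the largest difference of any member on the higher side. Oasl2, a relative of the family, was only 1.11-fold lower, with 31.1 in mutant and 34.5 in wild type.

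Rsad2 (viperin), an enzyme that makes a chain-terminating nucleotide, was lower on all 3 of its probe sets, with log2 differences of -0.49 to -0.24. On the brightest it read 337.8 in mutant and 445.4 in wild type, 1.32-fold lower, the largest difference among the representative probe sets of bright members. Isg20, an exonuclease that degrades RNA, was 1.21-fold lower (41.9 in mutant and 50.8 in wild type). Bst2 (tetherin), which holds budding virus at the cell surface, was within 1.08-fold, with 114.9 in mutant and 124.6 in wild type. Samd9l, a restriction factor that limits translation, was within 1.09-fold, with 442.4 in mutant and 484.2 in wild type. So the bright effectors other than Ifit2 were lower, by at most 1.32-fold on the probe sets that represent them.

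Mx1 and Mx2 encode dynamin-like GTPases that block viral replication, and many laboratory strains carry defective copies. The RefSeq table, built on C57BL/6J, lists both as transcribed pseudogenes. Mx1 read 2.57 in mutant and 9.32 in wild type, at least 2.22-fold lower because the mutant value is under 4.2. Mx2 read 7.26 in mutant and 7.5 in wild type. Both probe sets are therefore near the bottom of the scale.

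The interferon-inducible GTPases, which attack the vacuoles of intracellular microbes, had all 4 members lower (median log2 difference -0.41). Gbp3, a guanylate-binding protein, read 30.5 in mutant and 54.6 in wild type, 1.79-fold lower. In the authors' deposited table the lower bound of that fold is 1.65 and the difference of intensity 24.1. Gbp3 was the 1 member to pass the criterion written there, a lower bound over 1.5 with a difference over 20, which 0.269% of probe sets passed as lower and 0.3% as higher. Gbp2, its neighbour on chromosome 3 with 1 coding gene between them, read 18.8 in mutant and 25.9 in wild type, and both of its probe sets were lower. Irgm1, an immunity-related GTPase that guides autophagy of microbes, was bright and 1.27-fold lower, with 134.0 in mutant and 170.4 in wild type. Igtp (Irgm3) read 52.0 in mutant and 60.9 in wild type, 1.17-fold lower.

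Among other interferon-induced proteins, 4 of 7 were lower and 3 higher. Ifi44, a cytoplasmic protein of the response, was 1.53-fold lower, with 37.2 in mutant and 56.7 in wild type. Parp14, an ADP-ribosyltransferase, read 39.0 in mutant and 48.8 in wild type, and Ifi35 read 175.2 in mutant and 213.3 in wild type on its brightest probe set. The probe sets of Ifi35 disagreed in size, from -0.28 to 0.00 on the log2 scale. Xaf1, a promoter of apoptosis, was level, with 64.4 in mutant and 63.7 in wild type.

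The Ifitm genes, whose products sit in membranes and hinder virus entry, lie side by side on chromosome 7 and are expressed in many cells without interferon. Ifitm1 was 1.22-fold higher (430.4 in mutant and 352.4 in wild type) and Ifitm2 1.09-fold higher (653.8 in mutant and 599.2 in wild type). Ifitm3 was within 1.03-fold, with 741.6 in mutant and 764.2 in wild type. The proteins are closely similar, so their probe sets may read one another in part. Trim25, the ubiquitin ligase that activates RIG-I, was lower on all 3 of its probe sets, and the brightest read 223.3 in mutant and 252.7 in wild type.

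Among the antigen processing members, 4 neighbouring genes were lower and B2m was higher. Psmb9, Tap1, Psmb8 and Tap2 lie next to one another on chromosome 17 with no coding gene between them, and all 4 were lower in mutant. Tap1, a chain of the transporter that carries peptides into the endoplasmic reticulum, read 18.2 in mutant and 28.7 in wild type, 1.57-fold lower. Its other 3 probe sets stood under 4.2 in both arrays. Tap2, the partner chain, read 19.4 in mutant and 23.6 in wild type. Psmb9, an immunoproteasome subunit, read 23.5 in mutant and 31.5 in wild type, 1.34-fold lower. Tap1 and Psmb9 start 226 bases apart on opposite strands, so the Tap1 window printed above shares 275 of its 300 bases with that of Psmb9. Psmb8, a second immunoproteasome subunit, was within 1.06-fold (54.9 in mutant and 58.3 in wild type).

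B2m, the light chain of every classical MHC class I molecule, was higher on both of its probe sets. The brightest read 1016.5 in mutant and 849.9 in wild type, 1.2-fold higher, and the other had a log2 difference of 0.32. The class I heavy chain gene H2-K1 read 234.9 in mutant and 187.0 in wild type, 1.26-fold higher. H2-D1 was within 1.06-fold, with 287.4 in mutant and 270.9 in wild type. Class I genes are close relatives, so a probe set can read more than one of them. Of 13 measured genes of class I presentation outside the members, 11 were higher and 2 lower (median log2 difference 0.09), none past 1.5-fold. Among them Calr and Pdia3, chaperones of class I folding, were 1.13-fold and 1.11-fold higher, and Tapbp, which bridges TAP to class I, was within 1.01-fold.

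**Figure D3:**
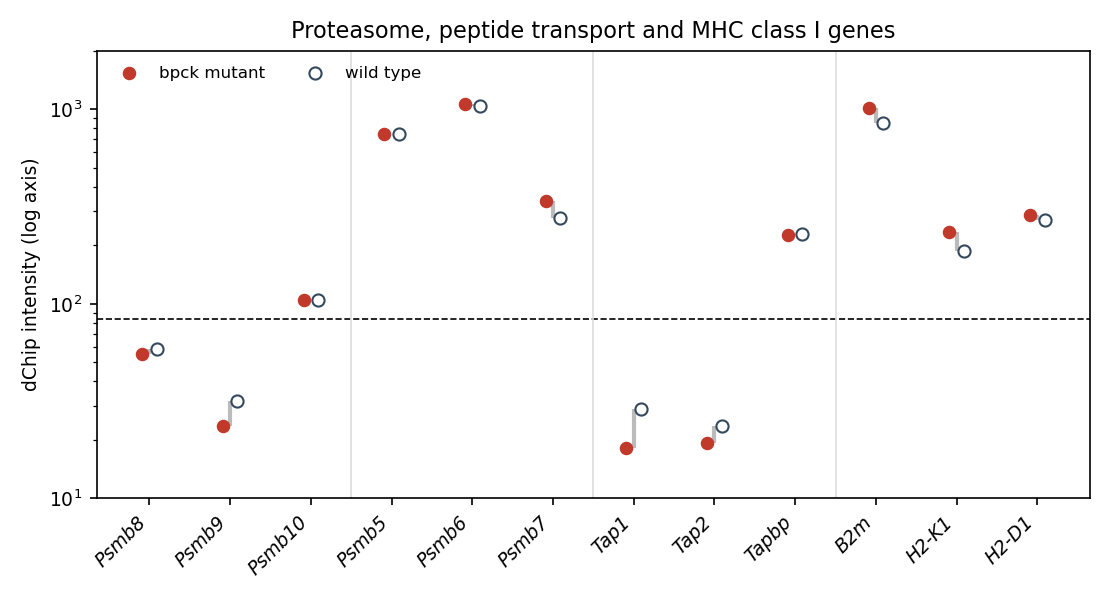
Intensity (log axis) in the bpck mutant array (filled red, left of each pair) and the wild-type array (open, right) of immunoproteasome subunits, the constitutive subunits they replace, peptide transport genes and MHC class I genes. The dashed line marks intensity 84. Psmb9, Tap1 and Tap2 are dim and lower in mutant, while B2m and H2-K1 are bright and higher.

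The immunoproteasome replaces catalytic subunits of the standard proteasome, so the standard genes give a comparison within the same complex. Psmb5 read 749.6 in mutant and 748.4 in wild type, and Psmb6 read 1059.6 in mutant and 1040.2 in wild type. Psmb7 was 1.22-fold higher, with 337.4 in mutant and 276.3 in wild type. Psmb10, the third inducible subunit, lies outside the block of Psmb9, Tap1, Psmb8 and Tap2 and was level, with 104.8 in mutant and 104.4 in wild type. Over 14 genes of the standard core particle 9 were higher and 5 lower (median 0.02), none past 1.5-fold. Apart from Psmb7 the largest differences among its bright genes were in Psmb2 (1.17-fold higher) and Psma1 (1.16-fold higher).

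Upstream of the members, ligands, receptors and kinases gave 8 genes higher, 5 lower and 2 with both arrays under 4.2, Ifna1 and Ifna4. The median log2 difference of the 15 was 0.01. Ifnar2, a chain of the type I interferon receptor, was 1.24-fold higher (163.4 in mutant and 132.2 in wild type), and Ifnar1, its partner, was within 1.01-fold. Ifngr1, a chain of the interferon gamma receptor, was 1.18-fold higher, and the kinase gene Jak2 was 1.13-fold lower. Among all dim genes 6.91% were at least 1.5-fold higher. The 2 listed genes at least 1.5-fold apart, named here after their values were seen, were dim and higher. They were Ifng, the gene of interferon gamma, with 17.9 in mutant and 7.54 in wild type, and the interferon lambda receptor gene Ifnlr1, with 20.6 in mutant and 12.8 in wild type.

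Genes of nucleic acid sensing beyond the members showed no common direction, with 9 of 17 lower and 8 higher (median 0.00). Mavs, the mitochondrial adaptor of RIG-I and MDA5, was 1.15-fold higher. Irf3, which responds to it, was 1.10-fold lower, and Samhd1, which depletes nucleotides, was 1.08-fold lower. Irf5, a factor of myeloid cells, was the 1 gene past 1.5-fold, with 15.6 in mutant and 9.25 in wild type, and is named after its value was seen. Its higher value was under 16.53, the median of all values. Of all genes under that median, 9.43% were at least 1.5-fold higher.

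A wider list of interferon-stimulated genes leaned the same way as the members when dim, though less far. Of 43 with a probe set, 26 were lower, 14 higher and 3 under 4.2 in both arrays (median log2 difference -0.10). The 29 dim ones had 19 lower and 7 higher (median -0.10), and the 14 bright ones 7 lower and 7 higher (median 0.00). In all, 6 were at least 1.5-fold lower and 1 higher, against 5.76% of all genes lower and 4.71% higher. Bright genes past the threshold were Ifi27l2a, a relative of Ifi27 (201.8 in mutant and 308.3 in wild type), and Gbp6 (50.01 in mutant and 84.4 in wild type). Ifi203, of a family of closely related DNA-binding genes, was 1.38-fold lower (70.3 in mutant and 96.9 in wild type). Some of the bright genes that were lower, Gbp6 and Ifi203 among them, reached intensity 84 in wild type only. They are in the bright class through the array where they were higher, so the count of bright genes lower is no independent result. The dim ones, named after their values were seen, were Herc6 (16.4 in mutant and 33.1 in wild type), Ifi47 (24.8 in mutant and 41.1 in wild type), Cxcl10 (4.99 in mutant and 9.23 in wild type) and Ddx60 (3.14 in mutant and 7.23 in wild type). The 1 on the higher side was Oasl1, with 15.7 in mutant and 10.03 in wild type. The higher values of Cxcl10, Ddx60 and Oasl1 were under 16.53, the median of all values. The mutant value of Ddx60 was also under 4.2.

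Brakes on the pathway, such as SOCS proteins and phosphatases, had 9 of 13 genes higher and 4 lower (median 0.06), none past 1.5-fold. The 13 include the receptor gene Ifnar2, already counted above among ligands, receptors and kinases and the farthest higher of this list. Trim24, a repressor of retinoid and interferon signalling, was 1.13-fold lower and Stat3 1.07-fold higher. MHC class II genes, which present peptides on macrophages, dendritic cells and B cells, had 8 of 11 higher and 3 lower (median 0.06). Ifi30, a reductase of class II processing that also belongs to the wider interferon list, was 1.16-fold higher. Ctss, a protease that trims the invariant chain, was 1.10-fold higher, and the class II chain gene H2-Ab1 was within 1.04-fold. No class II gene was 1.5-fold apart. Over all pathway genes that are not members, 21 of 56 bright ones were lower and 35 higher, while 33 of 68 dim ones were lower and 30 higher.

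Response element matches were set beside the differences as a description. All 8 dim members with that response element core in a window were lower (median -0.35, range -0.84 to -0.06). The 10 dim members whose windows lack it had 9 lower and 1 higher (median -0.21). Among bright members 4 of 6 were lower both with and without a match. Over all genes, 45.4% of dim and 50.4% of bright ones were lower. Irf7, Tap1 and Ifi44 were among the members farthest lower and had no match in these letters. Mx1, Mx2, Zbp1, Parp14, Tap2 and Oas2 are not in the promoter table, so they are in neither group.

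Where a member had several usable probe sets, these mostly went one way. Of 11 members with at least 2 probe sets reaching 4.2, 8 had all of them on one side of 0. The exceptions were Ddx58, Irf8 and Xaf1, whose differences stayed between -0.26 and 0.10 on the log2 scale. The remaining members rest on 1 usable probe set, including all 6 that were at least 1.5-fold lower.

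**Figure D4:**
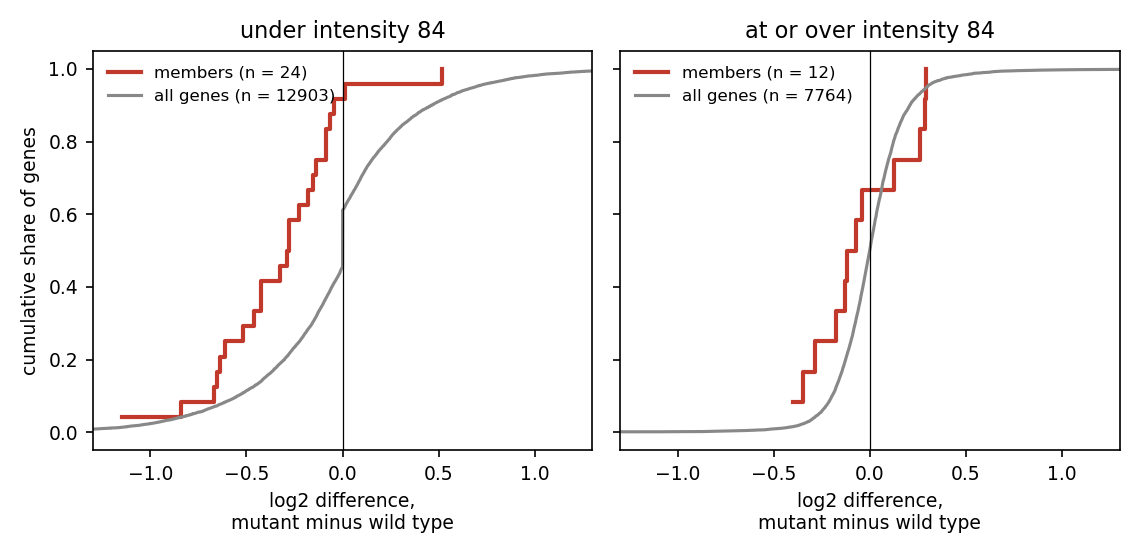
Cumulative share of genes by log2 difference (mutant minus wild type) for members (red) and all genes (grey), under intensity 84 (left) and at or over it (right). The members' curve lies left of that of all genes over most of the dim panel and crosses it in the bright panel.

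The composition of the samples differed, and its part in the values above was not tested. Markers of kidney were present in both arrays, such as Umod of the thick ascending limb (1876.5 in mutant and 1981.1 in wild type) and the kidney cadherin Cdh16 (1965.6 in mutant and 1828.6 in wild type). Macrophage markers were higher for 11 of 14 genes (median 0.25), with a summed intensity of 1493.9 in mutant and 1209.7 in wild type. Sums of markers, here and below, are ruled by their brightest probe sets and are no measure of cell number. Their brightest genes were Csf1r (325.5 in mutant and 214.2 in wild type) and Lyz2 (182.4 in mutant and 126.7 in wild type). Lymphocyte and plasmacytoid dendritic markers summed to 231.5 in mutant and 277.7 in wild type over 14 genes, 8 lower and 4 higher. Cd3e and Cd3g, which define T cells, were under 4.2 in both arrays. Ptprc, a pan-leukocyte gene, read 80.5 in mutant and 98.2 in wild type, and the T cell kinase gene Lck read 30.8 in mutant and 50.6 in wild type.

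Endothelial markers were lower for 7 of 10 genes, with sums of 1855.1 in mutant and 2025.0 in wild type. Kdr read 361.7 in mutant and 405.5 in wild type, and Emcn 307.3 in mutant and 298.5 in wild type. Both are expressed by vascular endothelium. Erythroid markers were lower for 4 of 7 genes, with sums of 333.7 in mutant and 484.0 in wild type, and Alas2 and Slc4a1 were 1.52-fold and 1.60-fold lower. Adrenal markers were lower for 7 of 8 genes and summed to 53.7 in mutant and 608.3 in wild type. Chgb read 4.51 in mutant and 215.9 in wild type, and Hsd3b1 2.77 in mutant and 204.7 in wild type. The sex-linked genes also differed, with Xist at 1112.7 in mutant and 4.67 in wild type and the Y-linked Ddx3y at 84.2 in mutant and 393.5 in wild type. The samples thus differed in their make-up by sex, which cannot be told apart from genotype here.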

How the data were processed

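Total RNA of 1 mutant and 1 wild-type kidney sample was read on Affymetrix Mouse 430 2.0 arrays, per the labels, from 100 ng of RNA. The deposited intensities are dChip expression indices (version of December 2010, per the series' design text). How background was removed and arrays were normalized is not given in the sources used here. The authors' deposited signed fold, its bounds and the difference of intensities (units treated as a score) came with the criterion in the file header. Its footer counts 354 genes passing, while the printed columns pass 256, so the filter was not fully recovered. Intensities summed to 5175900 in mutant and 5173132 in wild type, with medians of 16.13 and 16.97. The number of arrays limits the precision.

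Readings under 4.2 (20th percentile) were raised to 4.2 before log2, with no scaling added. Genes were named from the deposited symbols, and 1467 probe sets with several genes and 5991 with none were left out. Promoters and neighbours came from RefSeq (GRCm38.p6), and 31 of 39 members had a promoter. Members and lists were chosen with earlier results of these data known. Named genes were all members, and in each pathway list the 3 bright genes with the largest difference and any bright gene past 1.5-fold. Psmb5, Psmb6, Psmb7, Psmb10, H2-K1, H2-D1 and Tapbp were also named, with the 2 brightest of each marker list, Xist and Ddx3y. Ifnar1 was added as the partner of Ifnar2. One gene the rule names is not reported here. The 1.5-fold rule was run on simulated data as a check of the code. That simulation had less scatter than these arrays and no readings near the floor, so it gives no error rate for them. Alternatives covered scaling, floor, pseudocount, probe set choice, brightness boundary, fold threshold and source of values. Python 3.11.15, numpy 2.4.6 and pandas 2.3.3 were used.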

Additional observations from a re-analysis of the deposited data

How the results depend on the processing

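No replicate could be left out. No paired analysis was possible because each group has 1 array. The median of dim members stayed below 0 under every alternative listed for it, from -0.44 with the class boundary at 42 to -0.14 with a pseudocount of 32 in place of the floor. The count of members at least 1.5-fold lower (6) depended on the settings. It was 3 (Gbp3, Irf7 and Mx1) with array medians set equal, which shifts every gene by 0.07 on the log2 scale. It was 0 with the pseudocount and 2 of 24 members (Ifit1 and Tap1) without probe sets ending in _x_at, _s_at or _a_at. It was 13 at the lower threshold tried (log2 difference of 0.32), 1 at 2-fold and 1 by the authors' criterion, an alternative chosen after seeing the data. The count at least 1.5-fold higher (0) was 1 with array medians set equal and 1 at that lower threshold, in both cases Oas2. Dim members lower by any amount were 22 of 24. They numbered 14 of 16 without those probe sets and 10 of 10 with the class boundary at 42. Bright ones lower were 8 of 12, and numbered 5 of 8 and 20 of 26, since fewer genes or other genes entered the class. Apart from the authors' criterion, the share of all genes was computed at the main settings only. The counts under the other settings thus have no background beside them and describe the members alone. The median of bright members stayed below 0, from -0.14 with the class boundary at 42 to -0.02 with array medians set equal. In the latter setting the median of all bright genes was 0.07. With array medians set equal 27 members were lower and 9 higher, as Ddx58, Ifitm3 and Mx2 turned. Of 345 values of single members under alternatives, 332 moved by under 1.2-fold and no called value turned round. Many of these values could not move, so the count is no measure of stability. The deposited sources of values hold equal intensities for all 45037 probe sets, and the changes of floor touched only the dimmest members. Turning round was counted only for members at least 1.5-fold apart. The bound on Mx1 depends on the floor, and at the 40th percentile both of its values fall under it.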
